A study of Drosophila melanogaster with 8 samples.

Results

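The 10 genes described here are cnc, Keap1, maf-S, Sod1, Sod2, Cat, Trxr-1, Gclc, Gclm and Jafrac1, the core of the fly Nrf2 (cnc) pathway and of the enzymes that remove superoxide and hydrogen peroxide. They were chosen by name, and all 10 were found among the 17559 genes of the deposited count table. RNA was measured by sequencing in whole guts of adult female Drosophila melanogaster, in 4 control libraries and 4 libraries labelled as overexpressing the B-type lamin LamDm0 in enterocytes, which absorb nutrients in the midgut. Control guts carried a UAS-GFP transgene according to the series description, while the genotype label calls them wild type (wt). Both groups were reared at 18 °C, were 2 to 4 days old when shifted to 29 °C, and stayed there for 2 days. The labels name neither the driver line nor the number of guts in a library, and they call the libraries biological repeats.

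In flies, cnc encodes the transcription factor CncC, the counterpart of mammalian Nrf2. Keap1 holds CncC in the cytoplasm and presents it to a ubiquitin ligase, and oxidants or electrophiles release it. CncC then pairs with the small Maf protein encoded by maf-S and activates genes for antioxidant and detoxifying enzymes. This control acts largely on the CncC protein, so the level of cnc RNA is not a measure of CncC activity. In the fly midgut the Keap1-CncC pair is known for restraining stem cell division and for the response to ingested toxins.

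Library totals ranged from 19720070 to 36022790 counts. Lam, the gene expressed from the transgene, had 18.3 ± 1.62 CPM in the controls and 3608 ± 957 CPM with LamDm0. CPM are counts per 1000000 with TMM scaling (edgeR's trimmed mean of M-values), and a level with ± is the mean and SD over n = 4 libraries, while a log2 fold change with ± carries its standard error (SE). Of 5 enterocyte markers 1 was lower, the amylase gene Amy-p. All 5 summed to 3271 to 3821 CPM in control and 2085 to 3059 CPM in LamDm0 libraries, with no overlap. Without Amy-p the sum was 2061 to 2439 CPM in control and 1638 to 2212 CPM, with overlap. The summed fat body markers, nearly all of it Yp1 and apolpp, were 4.98 to 405 CPM in control and 471 to 900 CPM in LamDm0 libraries, with no overlap between the groups and control replicate 3 far below the other controls. Of 4 fat body markers 2 had enough counts to be tested and 0 passed, and Lsp2 and Fbp1 were at 0 in all controls. Tubule markers, 1 of which was lower (Oatp58Db), summed to 8.82 to 108 CPM and 4.09 to 46.2 CPM, and ovary markers to at most 0.173 CPM in any library. Enteroendocrine markers summed to 58.2 to 121 CPM in control and 82.3 to 143 CPM in LamDm0 libraries, progenitor markers to 40.2 to 73.9 and 29.6 to 57.6 CPM, visceral muscle markers to 913 to 1856 and 752 to 1975 CPM, and hemocyte markers to 0.509 to 2.3 and 0.364 to 4.33 CPM. The part of such tissue differences in the results below was not tested. In whole guts, fewer cells of a type and less RNA per cell cannot be told apart.

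Of the 10 genes, Gclc passed the test, and it was lower in LamDm0 guts. The other 9 did not pass. The test was edgeR's quasi-likelihood F-test over 8794 genes, with p-values adjusted by Benjamini-Hochberg over all of them and a threshold of 0.05. Over all 8794 genes, 8.03% passed, 4.76% as higher and 3.26% as lower, so 1 call among 10 genes is near the background. The median log2 fold change of the 10 was -0.06, beside 0.01 over all genes tested, with 5 values above 0 and 5 below. The control and LamDm0 values did not overlap for 3 of the 10, Gclc, Trxr-1 and Jafrac1, and for 17.3% of all genes tested.

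**Figure D1:**
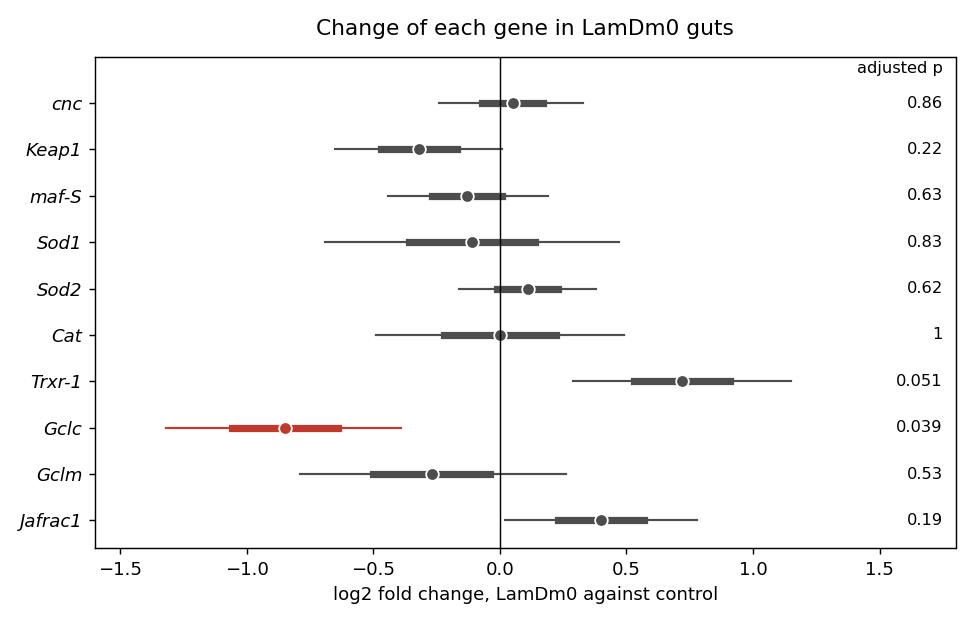
Log2 fold change of each of the 10 genes in LamDm0 against control guts (x axis), with 1 standard error as the thick bar, the 95% interval as the thin bar and the adjusted p at the right. Gclc, in red, lies at -0.85 with an adjusted p of 0.039, Trxr-1 at 0.72 with 0.051, and cnc and Cat lie within 0.05 of 0.

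The transcription factor gene cnc (FBgn0262975, chromosome arm 3R, 23185580 to 23226711, minus strand, in the Ensembl annotation of BDGP6.54) was at similar levels in both groups. Control replicates 1 to 4 had 340, 400, 328 and 327 CPM, and LamDm0 replicates 1 to 4 had 319, 399, 364 and 358 CPM. The ranges overlapped almost fully, and replicate 2 was the highest in each group. The log2 fold change was 0.05 ± 0.12 (SE; 95% interval -0.24 to 0.33, adjusted p = 0.86 by edgeR). A count per gene joins all isoforms of cnc. The annotation gives it 16 transcripts with 7 coding lengths, from 1599 to 4290 bases, and 28.8% of its 9178 exon bases are common to all of them. The long CncC form that binds Keap1 was therefore not measured apart from the shorter forms.

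Keap1 (FBgn0038475, 3R, 17073942 to 17079945), the inhibitor of CncC and itself reported as a CncC target in flies, was the least abundant of the 10. Its counts were 445 to 738 reads per library. It had 23.1, 27.1, 24.5 and 26.2 CPM in control replicates 1 to 4 and 18.0, 21.2, 25.5 and 16.3 CPM in LamDm0 replicates 1 to 4. LamDm0 replicates 1, 2 and 4 were below every control, whereas replicate 3 lay inside the control range. The log2 fold change of -0.32 ± 0.15 did not pass (95% interval -0.65 to 0.01, adjusted p = 0.22 by edgeR). The ratio of Keap1 to cnc, each per kilobase of exon, was 0.194 ± 0.0159 in control and 0.15 ± 0.0274 in LamDm0 guts (SD, n = 4 each), and the groups overlapped.

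The small Maf partner gene maf-S (FBgn0034534, 2R, 20640976 to 20641668) ranged from 43.5 to 63.2 CPM in the controls and from 44.6 to 54.7 CPM with LamDm0. The LamDm0 values fell inside the control range. Its log2 fold change was -0.13 ± 0.14 (95% interval -0.44 to 0.19, adjusted p = 0.63 by edgeR), and it turned to 0.04 when libraries were scaled by their totals alone.

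**Figure D2:**
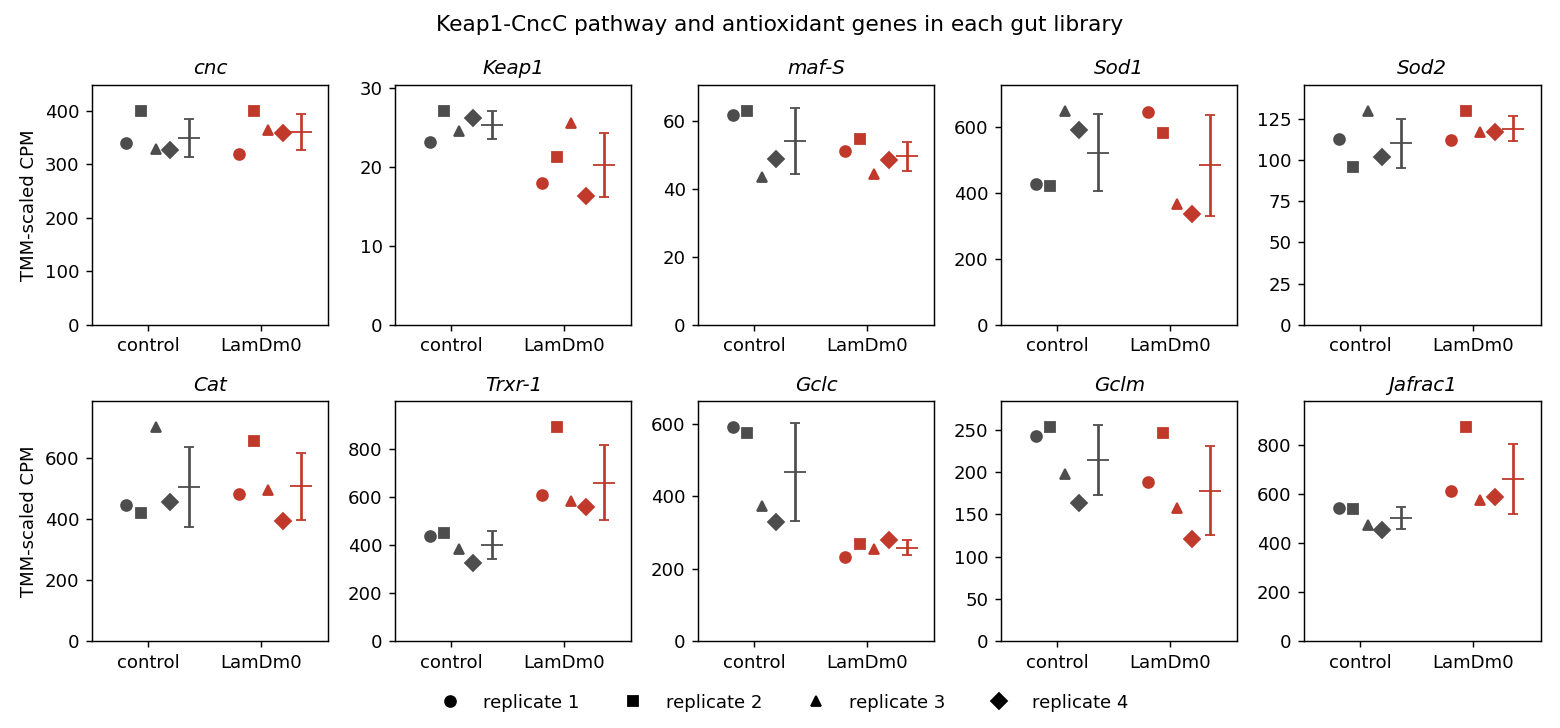
TMM-scaled CPM (y axis, from 0, its own scale in each panel) of the 10 genes in each of the 4 control and 4 LamDm0 libraries, with marker shapes for replicates 1 to 4 and the mean ± SD beside them. Gclc is at 330 CPM or more in every control and at 278 CPM or less in every LamDm0 library, Trxr-1 and Jafrac1 are above all controls in every LamDm0 library, and the groups overlap in the other 7 panels.

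Gclc and Gclm encode the catalytic and the modifier subunit of glutamate-cysteine ligase, which makes the rate-limiting step of glutathione synthesis. In mammals and flies the catalytic subunit is a known target of Nrf2 or CncC. Gclc (FBgn0040319, X, 8102181 to 8116147, minus strand) had 590, 573, 373 and 330 CPM in control replicates 1 to 4. LamDm0 replicates 1 to 4 had 232, 267, 255 and 278 CPM. Every LamDm0 library was below every control, and the controls were far more spread, with a coefficient of variation of 28.7% against 7.61%. Gclc fell 1.81-fold from 466 ± 134 to 258 ± 19.7 CPM (log2 fold change -0.85 ± 0.21, 95% interval -1.32 to -0.39, adjusted p = 0.039 by edgeR).

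The Gclc call rested on most of the libraries at once. It ended when any 1 of 6 libraries was left out, control replicates 1 and 2 and LamDm0 replicates 1 to 4 (adjusted p = 0.077 to 0.1). Control replicates 1 and 2 held the high values, and without both of them the log2 fold change was -0.44 ± 0.14 (adjusted p = 0.14). These 2 controls were also alike over all genes tested. Their deviations from the group means correlated at 0.48, against -0.73 to -0.09 for the other pairs of controls. The part of this likeness in the Gclc values was not tested. Without control replicates 3 and 4 the log2 fold change of Gclc was -1.17 ± 0.13 (adjusted p = 0.0053). In the authors' deposited table Gclc had a log2 fold change of -0.82 with an adjusted p of 0.0012.

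Gclm (FBgn0046114, 3R, 22685006 to 22686510) did not pass. Control replicates 1 to 4 had 242, 253, 198 and 163 CPM, and LamDm0 replicates 1 to 4 had 188, 246, 157 and 121 CPM. The 2 ranges overlapped, and LamDm0 replicate 2 was near the top of the controls. The log2 fold change was -0.27 ± 0.23 (95% interval -0.79 to 0.26, adjusted p = 0.53 by edgeR). The ratio of catalytic to modifier subunit RNA per kilobase of exon was 0.834, 0.774, 0.643 and 0.693 in control replicates 1 to 4 and 0.422, 0.372, 0.554 and 0.788 in LamDm0 replicates 1 to 4. LamDm0 replicate 4 lay inside the control range of this ratio and the other LamDm0 libraries lay below it.

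Flies have no glutathione reductase, and the thioredoxin system takes its place. Trxr-1, named Trxr1 in the current table, encodes the thioredoxin reductase of this system, and Jafrac1, now named Prx2, a cytosolic peroxiredoxin that reduces hydrogen peroxide with electrons from thioredoxin. The 2 genes stood higher in every LamDm0 library than in any control, in the opposite direction to Gclc, but neither passed the test.

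Trxr-1 (FBgn0020653, X, 8242528 to 8248033, plus strand) had 438, 450, 385 and 326 CPM in control replicates 1 to 4. LamDm0 replicates 1 to 4 had 608, 889, 582 and 556 CPM. LamDm0 replicate 2 stood well above the other LamDm0 libraries, which were themselves above every control. The group means were 400 ± 56.5 and 659 ± 155 CPM, a log2 fold change of 0.72 ± 0.19 (95% interval 0.29 to 1.15, adjusted p = 0.051 by edgeR, unadjusted p = 0.0042). It passed with limma-voom (adjusted p = 0.047), with DESeq2 (0.0039), with a minimum mean of 10 CPM (0.046), without mitochondrial genes and Lam (0.048) and with total-count scaling (0.025). It did not pass with any 1 library left out (0.073 to 0.11). In the authors' deposited table its log2 fold change was 0.67 with an adjusted p of 0.0051.

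Of the 3147 exon bases of Trxr-1, 13.8% overlap sni, a carbonyl reductase gene on the opposite strand. The sequencing kit marked strand, but the strand setting of the counting is not given in the sources used here. For sni the level was 20.9 ± 2.23 CPM in the controls against 27.5 ± 5.27 CPM with LamDm0 (log2 fold change 0.39 ± 0.15, adjusted p = 0.15), a level far below that of Trxr-1. Its highest value, 35.1 CPM, was also in LamDm0 replicate 2. The part of the overlap in the values of either gene was not tested.

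Jafrac1 (FBgn0040309, X, 13329824 to 13331994) had 543, 537, 475 and 451 CPM in control replicates 1 to 4 and 611, 871, 574 and 586 CPM in LamDm0 replicates 1 to 4. As for Trxr-1, LamDm0 replicate 2 was the highest of the 8 libraries. The gap between the groups was narrow, from 543 to 574 CPM. The log2 fold change was 0.40 ± 0.17 (95% interval 0.02 to 0.78, adjusted p = 0.19 by edgeR, unadjusted p = 0.042). Because Trxr-1 and Jafrac1 stood higher and Gclc lower, their balance differed between the groups. Per kilobase of exon the ratio of Trxr-1 to Gclc was 1.04 to 1.44 in control and 2.8 to 4.65 in LamDm0 libraries, and that of Jafrac1 to Gclc was 2.77 to 4.11 and 6.35 to 9.79. These 2 ratios were chosen after the values were seen and were not tested.

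**Figure D3:**
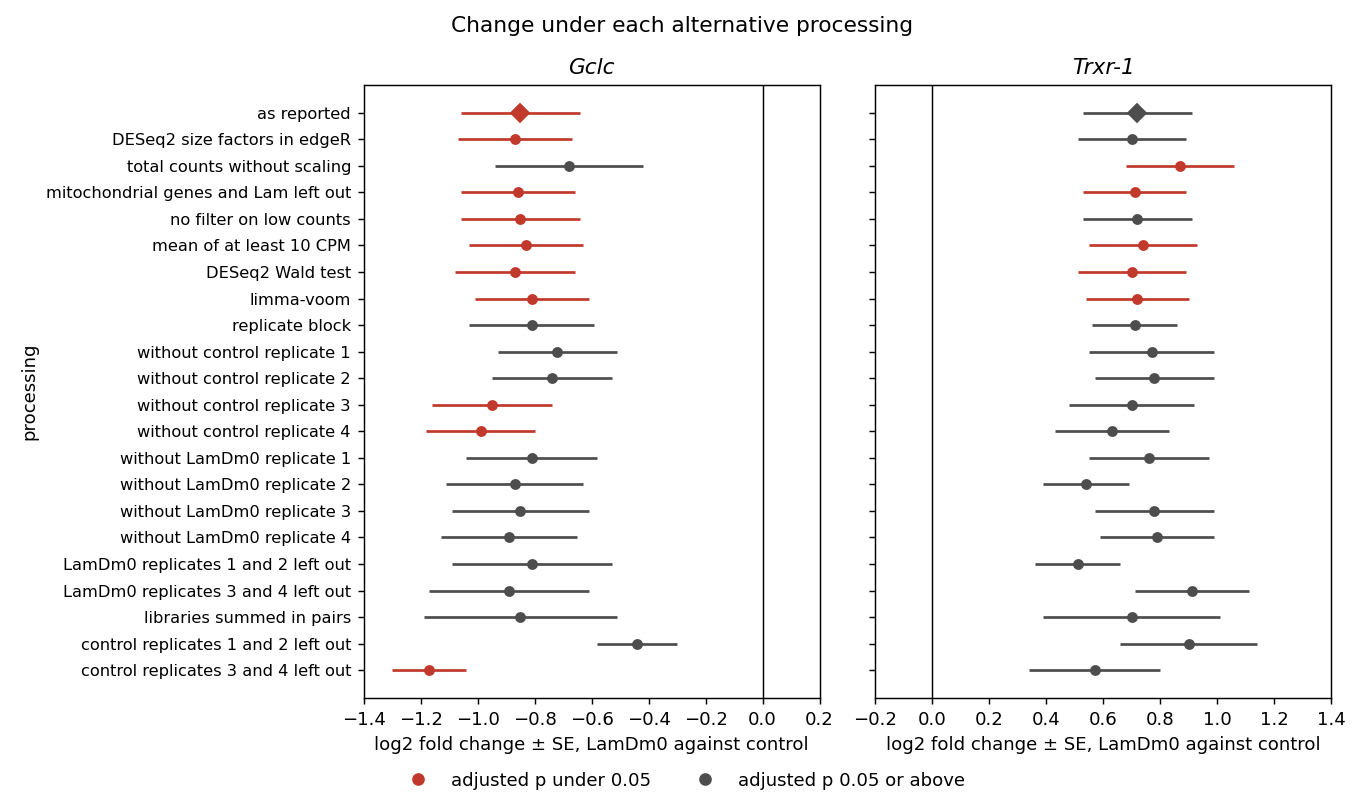
Log2 fold change ± SE of Gclc (left) and Trxr-1 (right) in LamDm0 against control guts (x axis) as reported and under each of 21 alternative ways of processing (y axis), in red where the adjusted p was under 0.05. Gclc lies below 0 throughout, between -1.17 and -0.44, and Trxr-1 above 0 throughout, between 0.51 and 0.91, while the color, and so the call, changes with the processing.

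Sod1 and Sod2 encode the cytosolic copper-zinc and the mitochondrial manganese superoxide dismutase, which turn superoxide into hydrogen peroxide, and Cat encodes catalase, which breaks hydrogen peroxide down. None of the 3 passed the test. Sod1 (FBgn0003462, 3L, 11112281 to 11113740) had 426, 420, 649 and 591 CPM in control replicates 1 to 4 and 645, 582, 367 and 337 CPM in LamDm0 replicates 1 to 4. Each group thus held 2 libraries at 582 to 649 CPM and 2 at 337 to 426 CPM, and the difference within a group was larger than that between the groups. The log2 fold change was -0.11 ± 0.25 (95% interval -0.69 to 0.47, adjusted p = 0.83 by edgeR). It was -0.57 ± 0.22 (adjusted p = 0.15) without LamDm0 replicates 1 and 2, and 0.24 ± 0.22 (adjusted p = 0.54) without LamDm0 replicates 3 and 4.

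The 4 libraries with high Sod1 were also those with the larger share of counts from mitochondrially encoded genes. It was 10.63% to 21.85%, against 5.55% to 10.25% in the other 4. Their TMM scaling factors were 0.87 to 0.943, against 0.996 to 1.22 in the other 4, and a lower factor gives a higher CPM. The part of this share and of the factors in the Sod1 values was not tested. With mitochondrial genes and Lam left out before scaling the log2 fold change of Sod1 was -0.13. That value compares the groups and cannot show the split within them. The same 4 libraries were the 4 highest for 7.24% of all genes tested, for no other of the 10 genes, and for 7 of the 43 other pathway genes described below (16.3%), among them the peroxiredoxin genes Jafrac2 and Prx6005.

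Sod2 (FBgn0010213, 2R, 16772785 to 16773915) had the smallest coefficient of variation of the 10 in LamDm0 libraries, 6.2%. In the controls it was 13.8%, above those of cnc, Keap1 and Jafrac1. Sod2 ranged over 95.6 to 130 CPM in the controls and 112 to 130 CPM in the LamDm0 libraries, so the LamDm0 values lay within the control range. The log2 fold change was 0.11 ± 0.12 (95% interval -0.16 to 0.38, adjusted p = 0.62 by edgeR). Cat (FBgn0000261, 3L, 18822604 to 18828188) had 446, 422, 702 and 458 CPM in control replicates 1 to 4 and 483, 658, 495 and 395 CPM in LamDm0 replicates 1 to 4. A single library stood above the rest in each group, control replicate 3 and LamDm0 replicate 2. The means were 507 ± 131 and 508 ± 110 CPM (log2 fold change 0.00 ± 0.22, 95% interval -0.49 to 0.49, adjusted p = 1 by edgeR).

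Levels of different genes were compared per kilobase of annotated exon. In control guts Sod1 was the most abundant of the 10, at 710 ± 158 CPM per kilobase, and did not overlap Jafrac1 (343 ± 31.2), the next in order. Jafrac1 and Cat (255 ± 65.7) overlapped. Cat was apart from the next gene. Gclm (142 ± 27.5), Trxr-1 (127 ± 17.9), Sod2 (109 ± 15.0), Gclc (106 ± 30.4) and maf-S (84.1 ± 15.0) followed, all in CPM per kilobase, and each overlapped its neighbour. The transcription factor cnc (38.0 ± 3.79) and Keap1 (7.33 ± 0.516) came last, and each was apart from the gene above it.

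In LamDm0 guts this order differed for Trxr-1 and Gclc. Trxr-1, at 209 ± 49.2 CPM per kilobase, overlapped Cat (255 ± 55.0) and was separate from Gclm (118 ± 35.2). Gclc, at 58.6 ± 4.46 CPM per kilobase, lay below all values of maf-S (77.1 ± 6.57). At the control mean per kilobase, 9 of the genes stood above 82.5% or more of the 8611 tested genes with an annotated length, and Keap1 stood above 49.2% of them.

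**Figure D4:**
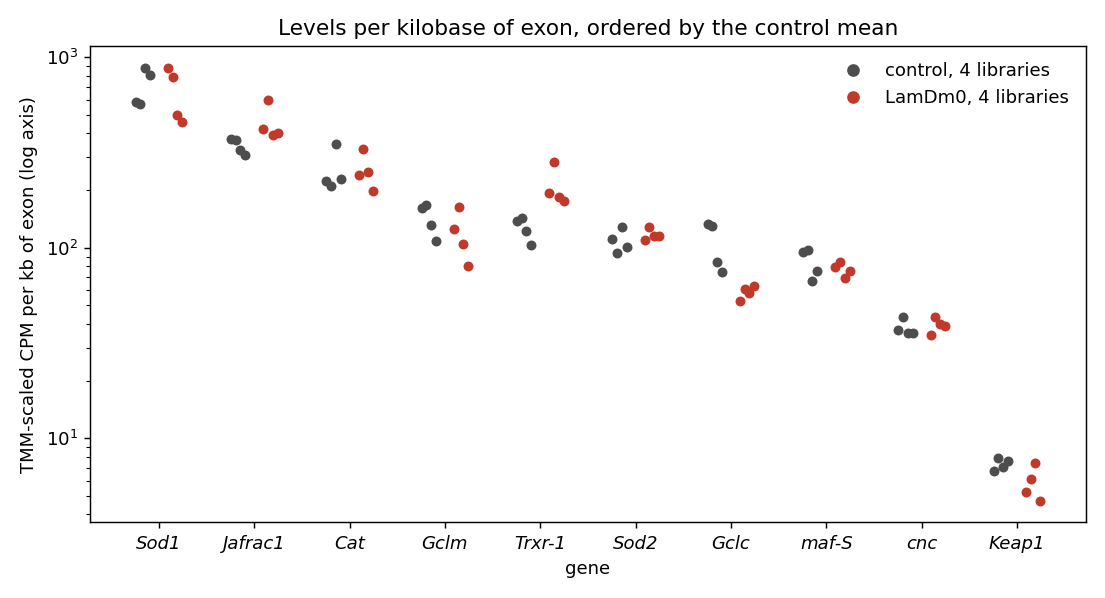
TMM-scaled CPM per kilobase of exon (y axis, log scale) of the 10 genes in 4 control and 4 LamDm0 libraries, 1 point per library, ordered by the control mean. Control means run from 710 for Sod1 to 7.33 for Keap1, and Trxr-1 and Gclc, close together in control guts, lie apart in LamDm0 guts.

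The 10 genes lie on 4 chromosome arms, with 3 on X, 3 on 3R, 2 on 3L and 2 on 2R. Gclc and Trxr-1 are the closest pair, 126.4 kilobases apart on X, and their log2 fold changes had opposite signs. The 3 genes of X, Gclc, Trxr-1 and Jafrac1, were also the 3 whose groups did not overlap, Gclc as lower and Trxr-1 and Jafrac1 as higher. The groups did not overlap for 17.3% of all genes tested, and the share among genes of X was not taken. The pattern was seen after the values and was not tested. Among genes with a mean level of 5 CPM or more, those whose profile over the 8 libraries was nearest to that of Gclc were CG30456, the zinc transporter gene ZnT63C and CG13917. Their root mean square differences from Gclc were 0.1, 0.108 and 0.115 on the log2(CPM + 1) scale, out of 6656 genes compared, and their log2 fold changes of -0.91, -0.69 and -0.73 did not pass (adjusted p = 0.062, 0.053 and 0.083 by edgeR).

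Around these 10, 50 other genes of the pathway were taken from 8 lists, of which 43 had enough counts to be tested. Of the 43, 0 were higher and 3 were lower in LamDm0 guts by edgeR, beside the 4.76% and 3.26% of all genes. At an unadjusted p under 0.05 there were 12 of the 43 in either direction, or 27.9%, beside 23.9% of all genes tested. DESeq2 called 0 of the 43 higher and 6 lower, and over all genes it called 7.6% higher and 7.23% lower. The median log2 fold change of the 43 was -0.18, with 14 values above 0 and 29 below, beside a median of 0.01 over all genes tested. With total-count scaling, which moved the median of all genes to 0.20, the median of the 43 was 0.01 with 20 values below 0. Control and LamDm0 ranges were apart for 8 of these 43 genes, or 18.6%, close to the 17.3% of all genes.

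The 3 lower genes were Cyp6a2, GstE1 and Prx2540-2. Cyp6a2, a cytochrome P450 gene inducible by phenobarbital through CncC, ranged over 24.9 to 31.0 CPM in the controls and 0.714 to 1.42 CPM in the LamDm0 libraries (log2 fold change -4.52 ± 0.20, adjusted p = 1.2e-05 by edgeR). GstE1, for a glutathione S-transferase, ranged over 21.4 to 34.9 CPM in the controls and 5.4 to 10.7 CPM in the LamDm0 libraries (-1.82 ± 0.24, adjusted p = 0.0033; 0.074 with libraries summed in pairs). Both belong to the 9 genes listed as CncC-inducible in earlier fly work, in which 7 did not pass. The 2 calls were both lower, beside 3.26% of all genes tested called lower. Of the 9, 55.6% had an unadjusted p under 0.05 by edgeR, beside 23.9% of all genes. Ranges did not overlap for 33.3%, beside 17.3%. Over all genes the median log2 fold change was 0.01, with 4282 of 8794 values below 0. The list was written with earlier results of these data known. Its median was -0.72, with 8 of 9 values below 0. Without control replicate 3 that median was -0.33 with 7 of 9 values below 0, and without control replicates 3 and 4 it was -0.17 with 6 of 9 below 0. The 2 lower calls held in both. Without control replicates 1 and 2 the median was -0.84 with 9 of 9 below 0, and 3 genes were called lower. The gene above 0 as reported was the reporter target GstD1, with 382, 385, 948 and 581 CPM in control replicates 1 to 4 and 722 to 758 CPM in LamDm0 libraries (0.37 ± 0.28, adjusted p = 0.48). Its log2 fold change was 0.95 (adjusted p = 0.012) without control replicates 3 and 4 and -0.04 (adjusted p = 0.94) without control replicates 1 and 2, so it depends on which controls are used. It was picked out here once its values were known.

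Prx2540-2, a peroxiredoxin of the 1-cysteine class now named Prx6c, had 32.4, 43.1, 44.3 and 44.9 CPM in control replicates 1 to 4 and 10.6, 11.2, 26.1 and 17.3 CPM in LamDm0 replicates 1 to 4. It fell 2.52-fold (log2 fold change -1.33 ± 0.28, adjusted p = 0.025 by edgeR), a call that 9 of 21 alternatives ended. These were control replicate 2 or 3 or LamDm0 replicate 1, 2 or 4 left out (adjusted p = 0.05 to 0.062), total-count scaling (0.09), libraries summed in pairs (0.18), and control replicates 1 and 2 (0.079) or 3 and 4 (0.084) left out. It has a near copy, Prx2540-1, so the split of reads between them is uncertain. Prx2540-1 was at 1.97 ± 0.353 CPM in the controls and 1.05 ± 0.36 CPM with LamDm0. Its log2 fold change was also below 0 and did not pass (-0.89 ± 0.30, adjusted p = 0.12 by edgeR). The part of the split in the values of Prx2540-2 was not tested. In their list of peroxiredoxin, thioredoxin and glutaredoxin genes 12 of 17 were tested and 11 did not pass. Prx2540-2 was the only call by edgeR, and the median log2 fold change was -0.11. Of the 12, 5 had an unadjusted p under 0.05 by edgeR, or 41.7%, beside 23.9% of all genes. Ranges did not overlap for 25.0%, beside 17.3%. DESeq2 called 3 of the 12 lower and 0 higher, beside 7.23% and 7.6% of all genes. For Prx5 all exon bases are shared with CG7215 on the same strand, and its 0 counts in all 8 libraries say nothing of its level. No read was counted for Trxr-2 and Grx1t either. The limit set by a count of 0 (3 counts) is 0.0683 to 0.153 CPM by library on the TMM scale, if their reads could be counted at all. TrxT and dhd had 1 and 15 counts in all.

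The remaining lists held no call in either direction by edgeR. The list of CncC regulators and sensors, among them the ubiquitin ligase subunits Cul3 and Roc1a and the adaptor ref(2)P, had 0 of 6 called, a median of -0.02, and 1 gene, or 16.7%, with an unadjusted p under 0.05 (23.9% of all genes), the sestrin gene Sesn (67.3 ± 11.7 to 51.5 ± 7.06 CPM, log2 fold change -0.39 ± 0.15, adjusted p = 0.16). Of 4 further genes of superoxide and peroxide removal, the copper chaperone gene for Sod1, Ccs, had the smallest p (0.21 ± 0.15, adjusted p = 0.42). The 6 genes that supply NADPH, the reductant that thioredoxin reductase draws on, all had a log2 fold change below 0. Of all genes tested, 4282 of 8794 had a value below 0. The median of the 6 was -0.30, beside 0.01 over all genes. An unadjusted p under 0.05 by edgeR was found for 16.7% of the 6, beside 23.9% of all genes. Ranges did not overlap for 0 of the 6, beside 17.3% of all genes. Without control replicate 2, LamDm0 replicate 1 or LamDm0 replicate 4, 5 of 6 were below 0. The same held without control replicates 1 and 2 or control replicates 3 and 4. With total-count scaling 4 of 6 were below 0 and the median was -0.15, beside 0.20 over all genes. Of the 6, Zw, glucose-6-phosphate dehydrogenase, was at 54.5 ± 13.3 CPM in the controls against 37.7 ± 4.97 CPM with LamDm0 (-0.53 ± 0.18, adjusted p = 0.12).

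Of 3 genes for glutathione synthesis and turnover, only the gamma-glutamyl transpeptidase gene Ggt-1 had enough counts (log2 fold change 0.22 ± 0.12, adjusted p = 0.32 by edgeR). Gss1 and Gss2, glutathione synthetase genes that are neighbours of equal exon length, had 2 and 0 counts in all. Whether reads of near-identical genes were counted is not given in the sources used here. Of 2 genes for making reactive oxygen species, the NADPH oxidase gene Nox had 4.41 ± 2.64 and 2.46 ± 1.05 CPM (-0.84 ± 0.47, adjusted p = 0.32). Of 3 iron and haem genes, the ferritin light chain gene Fer2LCH had the smallest p and did not pass (-0.38 ± 0.17, adjusted p = 0.23). It ranged over 2041 to 2477 CPM in the controls and 1307 to 1970 CPM in the LamDm0 libraries, with no overlap. Ranges did not overlap for 1 of the 3, or 33.3%, beside 17.3% of all genes tested.

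**Figure D5:**
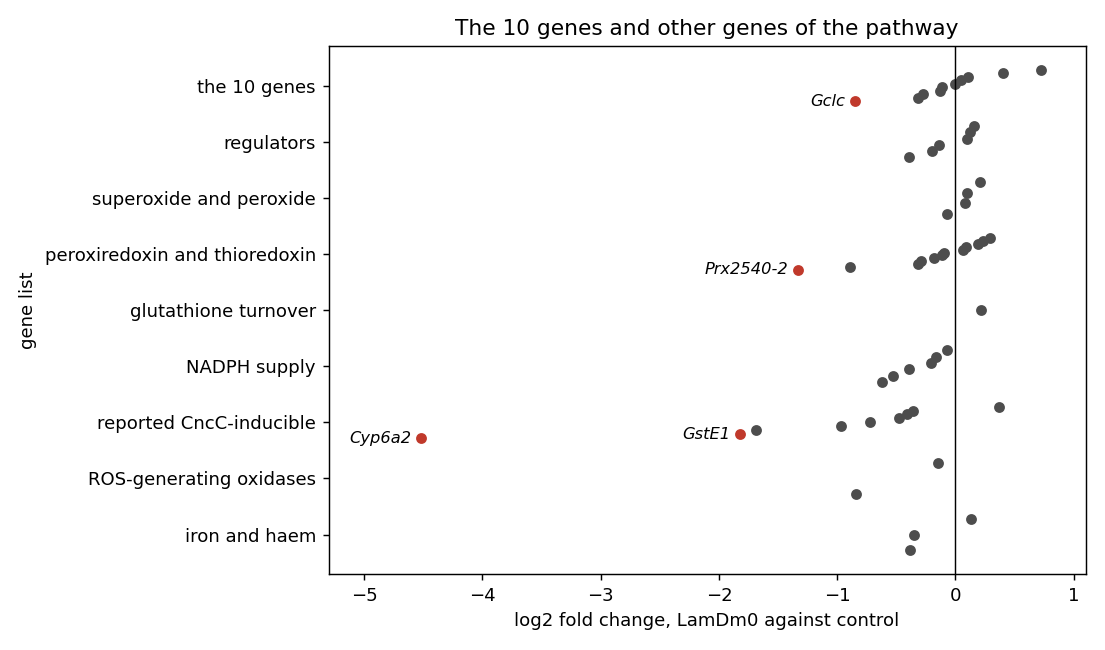
Log2 fold change in LamDm0 against control guts (x axis) of the 10 genes and of the tested genes of 8 other pathway lists (y axis), 1 point per gene, in red with its name where the adjusted p was under 0.05. The 4 named genes, Cyp6a2, GstE1, Prx2540-2 and Gclc, all lie below 0, and no gene above 0 passed.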

How the data were processed

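The authors deposited raw counts of reads per gene, 1 column per library, with a table of their own comparison whose log2 and p-value columns, per the file headers, were read for side-by-side values and whose signal column of mean scaled counts (baseMean, deposited there) was not used. Per the submitters' processing notes the build was BDGP6 and the tools named, without their roles, were DESeq2 1.10.1, HTSeq 0.6.0 and TopHat2 2.0.13. The handling of strand and of multiply mapping reads is not given in the sources used here. There were 0 unused columns of per-sample values and 0 rows without a gene identifier.

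Counts were tested with edgeR 4.0.16 in R 4.3.3: filterByExpr, TMM scaling, a two-sided quasi-likelihood F-test between the groups with no block, and Benjamini-Hochberg adjustment over 8794 genes. A standard error is the log2 fold change over the square root of F. The steps were tested on simulated data. Alternatives used limma 3.58.1 and DESeq2 1.42.0, other scalings and filters, a replicate block and subsets of libraries. Libraries of equal replicate number were not alike: their deviations from the group means correlated at -0.37 to -0.03. These correlations cannot show whether equal numbers were prepared together. A count of 0 allows 3 counts, which covers counting error only.

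Named were Lam, the 10 genes, up to 3 called genes per list or else the gene with the smallest p, and 3 genes with the nearest profile to each called member. The genes and lists were chosen with earlier results of these data known. Of 53 pathway symbols written, 50 separate genes matched, and Duox was not analysed here.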

Additional observations from a re-analysis of the deposited data

Results flagged for a closer look

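Among 40 groups of 4 libraries, 2 for each of 20 named genes, 5 held a library set apart from the other 3 by a gap above Dixon's 95% limit for 4 values, and chance alone flags about 1 group in 20. For Cat, control replicate 3 had 702 CPM and the other controls 422 to 458. For Trxr-1, LamDm0 replicate 2 had 889 CPM and the others 556 to 608. For Jafrac1, the same library had 871 CPM and the others 574 to 611. Without it the log2 fold changes of Trxr-1 and Jafrac1 went from 0.72 and 0.40 to 0.54 and 0.24. For Prx2540-2, control replicate 1 had 32.4 CPM and the other controls 43.1 to 44.9. For Cyp6a2, LamDm0 replicate 2 had 0.714 CPM and the others 1.31 to 1.42.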

How the results depend on the processing

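Of 21 alternatives, 2 were chosen after seeing the data, those that leave out control replicates 1 and 2 or control replicates 3 and 4. Gclc stayed below 0 and Trxr-1, Jafrac1 and Sod2 above 0 in all 21, and Keap1 below 0. The number of the 10 genes called lower went from 1 to 0 with total-count scaling, the replicate block, libraries summed in pairs, and LamDm0 replicates 1 and 2, LamDm0 replicates 3 and 4 or control replicates 1 and 2 left out, and ranged from 0 to 1 with 1 library left out. The number called higher went from 0 to 1 (Trxr-1) with total-count scaling, with mitochondrial genes and Lam left out, with a minimum mean of 10 CPM, with DESeq2 and with limma-voom. Of the other pathway genes, 6 were lower with DESeq2, 5 without LamDm0 replicates 1 and 2 and 1 with libraries summed in pairs, against 3 as reported, and 1 was higher without LamDm0 replicates 3 and 4 (Ccs) or without control replicates 3 and 4 (GstD1), against 0.

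Over all genes, 419 were higher and 287 lower. These counts were 668 and 636 with DESeq2, 275 and 190 with a minimum mean of 10 CPM, 211 and 121 with the replicate block, 36 and 36 with libraries summed in pairs, and 176 and 120 without control replicates 1 and 2. The number lower was 134 with total-count scaling, 137 without LamDm0 replicates 3 and 4 and 435 without control replicates 3 and 4. With 1 library left out the counts were 214 to 387 and 132 to 267. The replicate block ended the Gclc call (-0.81, adjusted p = 0.12) and no other call among the genes named. The correlations between equal numbers cannot decide whether the block applies.

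Total-count scaling moved the median of all genes tested from 0.01 to 0.20. Small changes that did not pass also turned sign. Cat, at 0.00, was -0.02 with DESeq2 size factors, DESeq2 or libraries summed in pairs, -0.01 with mitochondrial genes and Lam left out, and -0.19 without LamDm0 replicates 1 and 2 or control replicates 1 and 2. It was -0.15 to 0.20 with 1 library left out. Sod1 was 0.04 with total-count scaling, 0.24 without LamDm0 replicates 3 and 4, 0.19 without control replicates 3 and 4, and -0.28 to 0.03 with 1 library left out. The gene maf-S was 0.04 with total-count scaling and 0.12 without control replicates 1 and 2. Gclm was 0.03 without LamDm0 replicates 3 and 4. The gene cnc was -0.04 without control replicates 3 and 4 and -0.01 to 0.12 with 1 library left out. The causes were not tested, and 4 libraries a group limit what could be called.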
